A study of Mus musculus with 18 samples.

Results

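The comparison set the microRNA content of the mouse eye against that of the lung. All 6 eye libraries of the series (left eye 1 to 3 and right eye 1 to 3) were set against all 6 lung libraries (left lung 1 to 3 and right lung 1 to 3), so 12 of the 18 libraries entered and the 6 testicle libraries did not. The animals were male C57BL/6 mice of 8 to 12 weeks, and the labels name no treatment or altered gene. The 4 groups were left eye, right eye, left lung and right lung with 3 libraries each, and the sides were combined into 2 groups of 6. Whole organs were used, so every library mixed many cell types. The labels do not say which libraries came from the same mouse, so the p-values measure the spread between these libraries, part of which may be technical.

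MicroRNAs are short RNAs cut from a hairpin precursor, which can release a mature strand from its 5′ arm (5p) and another from its 3′ arm (3p). A mature miRNA loaded on an Argonaute protein finds its messenger RNAs mainly through its seed, bases 2 to 8 from the 5′ end, and lowers their translation and stability. MiRNAs that share a seed form a family with largely shared targets, and hairpins that lie close together are often cut from 1 long transcript. The eye holds neural retina, pigment epithelium, lens, cornea and the muscle of the iris and ciliary body, and attached extraocular muscle can be taken along. The lung holds alveolar and ciliated airway epithelium, a dense capillary bed, smooth muscle and many leukocytes.

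The mature sequences below belong to miRNAs on which the organ contrast turned. They were read from the RefSeq table for GRCm38.p6 and are written 5′ to 3′ with the seed in capitals. The first set was far higher in eye. MiR-204-5p and miR-211-5p share a seed and differ at 1 of 22 positions, while miR-183-5p, miR-96-5p and miR-182-5p are cut from neighbouring hairpins but carry 3 different seeds.
miR-204-5p: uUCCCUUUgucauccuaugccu
miR-211-5p: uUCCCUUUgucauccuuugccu
miR-183-5p: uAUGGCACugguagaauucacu
miR-96-5p: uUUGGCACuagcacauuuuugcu
miR-182-5p: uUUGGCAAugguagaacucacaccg
miR-184-3p: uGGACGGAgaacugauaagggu
miR-9-5p: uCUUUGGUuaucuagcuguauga

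The second set was higher in lung. MiR-449a-5p and miR-34a-5p share a seed, as do miR-16-5p, miR-322-5p and miR-497a-5p, while miR-200c-3p and miR-200a-3p differ at 1 seed base.
miR-449a-5p: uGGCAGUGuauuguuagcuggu
miR-34a-5p: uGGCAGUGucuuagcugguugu
miR-200c-3p: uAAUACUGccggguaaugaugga
miR-200a-3p: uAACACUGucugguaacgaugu
miR-126a-3p: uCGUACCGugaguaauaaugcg
miR-16-5p: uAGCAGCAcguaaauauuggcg
miR-322-5p: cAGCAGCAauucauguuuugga
miR-497a-5p: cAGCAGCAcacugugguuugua

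The third set is shown because members with 1 seed were unlike between the organs. MiR-10a-5p and miR-10b-5p differ at 1 of 23 positions, outside the seed, and 1 of them was far higher in lung while the other was not called. MiR-384-5p and miR-30a-5p differ at 10 of 22 positions, miR-708-5p and miR-28a-5p at 6 of 22, in each case outside the seed, and the members of each pair were called in opposite directions.
miR-10a-5p: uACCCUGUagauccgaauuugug
miR-10b-5p: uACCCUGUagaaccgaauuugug
miR-384-5p: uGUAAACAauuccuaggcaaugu
miR-30a-5p: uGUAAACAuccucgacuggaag
miR-708-5p: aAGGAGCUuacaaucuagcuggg
miR-28a-5p: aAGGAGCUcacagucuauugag

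Library totals lay between 2451484 and 2680204 counts in eye and between 2538402 and 2790471 in lung, so 3 counts corresponded to 1.075 to 1.224 CPM, counts scaled to a common library total. Eye libraries detected 838 to 925 miRNA names and lung libraries 696 to 852. Pearson's r of log2(CPM + 1) across miRNAs was 0.973 to 0.987 between eye libraries, 0.948 to 0.991 between lung libraries and 0.683 to 0.741 between an eye and a lung library. Some lung libraries stood apart. Right lung 1 had the fewest detected names, and, with left lung 2, the highest sums of the miRNAs listed for pigment epithelium, lens or cornea (1950 and 1227 CPM of library totals against 533.7 to 666.2 in the other lungs). Left lung 1 and right lung 3 held the highest sums of the testis list (327.1 and 475.5 CPM of library totals against 66.23 to 160.7). Left lung 2, left lung 3 and right lung 3 held 55, 109 and 45 counts of miR-208a-3p, an miRNA of heart muscle, against 0 to 2 in every other library. The part these differences play in the results below was not tested, and values that leaving such libraries out moves by over 1.5 times, or whose call it changes, are given both ways.

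Of 1431 listed miRNA names 501 passed the filter on low counts, and 348 of them (69.5%) differed between eye and lung at an adjusted p under 0.05 in edgeR's quasi-likelihood test. Of these, 203 (40.5% of those tested) were higher in eye and the others (28.9%) were higher in lung. At least a 2-fold difference was found for 195 (38.9%) and 114 (22.8%), and every eye library lay above every lung library for 187 (37.3%), every lung above every eye for 110 (22.0%). Log2 fold changes below are eye minus lung with their standard error (SE), and levels are CPM scaled by trimmed mean of M-values (TMM), given as the lowest, the median and the highest of 6 libraries. The median log2 fold change over all 501 was 0.16. A scale that weighs miRNAs differently shifts all values together: with upper-quartile scaling that median was -0.41 and the calls were 184 higher in eye and 223 higher in lung. In whole organs fewer cells of a type and less of an miRNA per cell cannot be told apart. The lists used below were chosen with earlier results of these data known. Their shares beside those of all tested miRNAs are therefore a description and not an independent test.

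**Figure D1:**
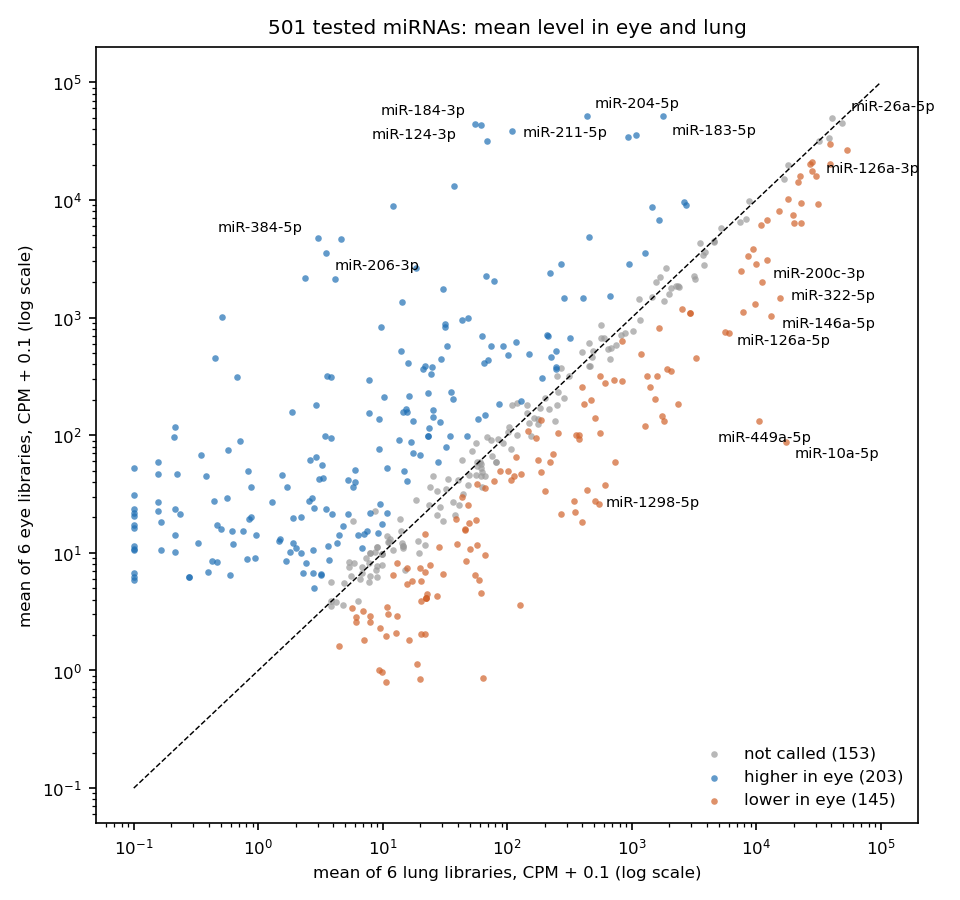
Mean CPM of 6 eye libraries (vertical, log scale) against mean CPM of 6 lung libraries (horizontal, log scale) for the 501 tested miRNAs, with 0.1 CPM added to both. The 203 miRNAs higher in eye reach the top left, where high means in eye meet low means in lung, while the miRNAs higher in lung lie mostly nearer the dashed line of equal level, with miR-10a-5p and miR-449a-5p among those farthest from it.

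The cluster of miR-183, miR-96 and miR-182, the hallmark of sensory cells such as photoreceptors, lies on chromosome 6 (GRCm38.p6 positions 30165918 to 30169737). MiR-183-5p was at 40934, 52799 and 56415 CPM in eye and at 751, 1684 and 3486 CPM in lung. MiR-96-5p was at 31284, 33536 and 37355 CPM in eye and at 816, 893 and 1158 CPM in lung, and miR-182-5p at 26953, 37177 and 39739 against 570, 1172 and 1482. No eye library overlapped a lung library for any of these. The log2 fold changes were 4.83 for miR-183-5p (SE 0.32, adjusted p = 3.12e-09), 5.19 for miR-96-5p (SE 0.13, adjusted p = 2.93e-13) and 5.05 for miR-182-5p (SE 0.27, adjusted p = 3.17e-10). All 6 tested arms of the 3 hairpins were higher in eye, as were 40.5% of all tested miRNAs. The lung level was far from 0, and the summed cluster held 2513 to 4702 CPM of library totals across the 6 lung libraries against 109000 to 124900 in eye.

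MiR-204 and miR-211, kept apart by 1 base, sit in introns of 2 related channel genes, Trpm3 on chromosome 19 and Trpm1 on chromosome 7, and are known from the retinal pigment epithelium. MiR-204-5p was at 44621, 52167 and 56244 CPM in eye and at 148, 185 and 1380 CPM in lung. MiR-211-5p was at 35276, 37473 and 43560 CPM in eye and at 27.5, 62.2 and 366 CPM in lung. The highest lung value of both was in right lung 1, still far below the lowest eye library. The log2 fold changes were 6.90 (SE 0.63, adjusted p = 1.04e-07) and 8.46 (SE 0.68, adjusted p = 2.51e-08). Without right lung 1 they were 7.51 and 9.15, and without right lung 1 and left lung 2 they were 8.25 and 9.63. Without left lung 2, left lung 3 and right lung 3 the value of miR-211-5p was 7.80. The passenger arm miR-211-3p reached 801 counts in the 6 eyes together and 0 in the 6 lungs, which is at least 280-fold higher in eye against a floor of 3 counts over the group.

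MiR-184-3p, an abundant miRNA of cornea and lens, comes from a hairpin on chromosome 9 (89802260 to 89802328) outside any annotated gene. It was at 36171, 43875 and 47291 CPM in eye and at 7.23, 35.6 and 169 CPM in lung (log2 fold change 9.46, SE 0.73, adjusted p = 1.54e-08, and 10.73 without right lung 1 and left lung 2). MiR-205-5p, an miRNA of stratified epithelia, was at 644, 786 and 1068 CPM in eye and at 1.24, 4.25 and 37.9 CPM in lung. Its log2 fold change was 6.44 (SE 0.74, adjusted p = 1.23e-06), 7.70 without left lung 2, the lung library that held 37.9 CPM, 7.50 without right lung 1 and left lung 2, and 8.65 without left lung 2, left lung 3 and right lung 3. MiR-203-3p, known from epidermis and cornea, was only slightly higher in eye, at 321, 353 and 419 CPM against 112, 264 and 304 CPM (log2 fold change 0.57, SE 0.22, adjusted p = 0.0324). Of 10 tested arms listed for pigment epithelium, lens or cornea 9 were called higher in eye, beside 40.5% of all tested miRNAs, and miR-203-5p was not called. The number called higher was 8 with library totals only and 8 without left lung 1 and right lung 3. With upper-quartile scaling 8 were higher and 1 lower, and over all alternatives with a filter 7 to 9 were higher. The list's median log2 fold change was 7.68, or 7.51 with the member at 0 in lung set at its bound, beside 0.16 over all miRNAs.

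Of 30 tested members of the neural list 28 were higher in eye and none was lower (1 was with upper-quartile scaling), and for 27 every eye library lay above every lung library. Over all tested miRNAs these shares were 40.5% and 37.3%. MiR-124-3p, the most abundant neuronal miRNA, was at 27328, 43258 and 58222 CPM in eye and at 6.89, 32.7 and 157 CPM in lung. Its log2 fold change was 9.63 (SE 0.85, adjusted p = 6.61e-08), 10.25 without left lung 2 and 11.08 without right lung 1 and left lung 2. MiR-9-5p, an miRNA of neural progenitors, retina and brain, was at 6971, 8807 and 10390 CPM in eye and at 7.23, 10.3 and 17.9 CPM in lung (log2 fold change 9.52, SE 0.30, adjusted p = 1.49e-12). The groups stood far apart even at their nearest libraries, since the lowest eye value was 174-fold above the highest lung value for miR-124-3p and 389-fold for miR-9-5p.

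The remaining neural members ranged widely. MiR-135a-5p was at 11899, 12353 and 15982 CPM in eye and at 20.2, 38.2 and 52.0 CPM in lung, a log2 fold change of 8.48 (SE 0.27, adjusted p = 1.49e-12). MiR-384-5p was at 2980, 4804 and 5955 CPM in eye and at 0.761, 2.28 and 6.54 CPM in lung (log2 fold change 10.63, SE 0.43, adjusted p = 1.79e-11, and 11.34 without left lung 2, left lung 3 and right lung 3). MiR-7a-5p, an miRNA of neurons and endocrine cells, was at 3691, 4996 and 6340 CPM against 339, 445 and 642 CPM (log2 fold change 3.44, SE 0.20). These members did not overlap between the organs. MiR-218-5p, known from motor neurons but also carried in introns of the Slit genes, was at 3715, 4402 and 5840 CPM in eye and at 3682, 4555 and 6129 CPM in lung, with the ranges overlapping almost wholly (log2 fold change -0.03, SE 0.16, adjusted p = 0.882). MiR-328-3p was the other member not called.

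MiR-219a-2-3p marks oligodendrocytes, which wrap the optic nerve but in mice not the retina. It was at 220, 1088 and 1560 CPM in eye and at 0, 0.402 and 1.03 CPM in lung. The lung values were at or under the floor of 3 counts in every library, and the lowest eye library, right eye 3, held 485 counts.

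A neighbouring name needs care. MiR-9b-3p was among the most abundant names in eye, at 26170, 32653 and 36397 CPM against 35.3, 45.2 and 128 CPM in lung (log2 fold change 8.87, SE 0.42, adjusted p = 9.63e-11), although its hairpins lie on the opposite strand of the 3 miR-9 hairpins. How the counts of overlapping hairpins were assigned is not given in the sources used here, so the counts of miR-9b-3p and of the miR-9 arms may not be separate. Overlaps of the same kind are annotated for miR-219a-2 with miR-219b, miR-24-2 with miR-3074-2, miR-136 with miR-3071 and miR-203 with miR-203b.

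Striated muscle miRNAs were higher in eye. MiR-206-3p, restricted to skeletal muscle, was at 2498, 3392 and 5412 CPM in eye and at 1.18, 2.996 and 8.24 CPM in lung. Its log2 fold change was 10.02 (SE 0.48, adjusted p = 9.63e-11), and 10.66 without right lung 1 and left lung 2. MiR-499-5p, encoded in an intron of the myosin gene Myh7b, was at 2271, 2649 and 2995 CPM in eye and at 10.2, 18.4 and 26.9 CPM in lung (log2 fold change 7.15, SE 0.29, adjusted p = 1.93e-11). MiR-1a-3p, shared by heart and skeletal muscle, was at 1930, 2640 and 4615 CPM in eye and at 33.5, 249 and 508 CPM in lung. Its smaller log2 fold change of 3.39 (SE 0.59, adjusted p = 8.59e-05) became 5.17 without left lung 2, left lung 3 and right lung 3. The same libraries moved miR-133a-3p from 4.73 (SE 0.62) to 6.60.

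The 3 lungs with miR-208a-3p counts also held the highest striated muscle sums among lungs, 686.6, 605.6 and 653.6 CPM of library totals against 87.85 to 136.7. MiR-208b-3p, an intronic miRNA of a slow myosin gene, was the 1 list member lower in eye, at 1.31, 3.09 and 6.33 CPM against 4.12, 12.0 and 13.9 CPM in lung (log2 fold change -1.67, SE 0.38, adjusted p = 0.0011). Thus 5 of 6 tested list members were higher in eye and 1 lower, beside 40.5% and 28.9% of all tested miRNAs.

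The imprinted Dlk1-Dio3 region of chromosome 12 carries a long run of miRNA hairpins, expressed from the maternal chromosome and known from brain, muscle and embryo. All 64 tested members were higher in eye and for all 64 every eye library lay above every lung library, beside 40.5% and 37.3% of all miRNAs. Of 98 names of the list among the counts these 64 passed the filter, which the eye level alone can satisfy. Names low in both organs were thus not tested. Over all alternatives with a filter 47 to 72 were higher and 0 lower. The median log2 fold change was 3.93 and the range 1.58 to 7.96. The summed level was 18600 to 24100 CPM of library totals in eye and 2004 to 5829 in lung, with left lung 2 and right lung 1 (5829 and 5795) above the other lungs (2004 to 2619).

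The 3 blocks of the region differed little in direction. The block from Mir770 to Mir136 (109563692 to 109595388) had 15 of 15 members higher in eye, the block of Mir341 and Mir370 (109611500 to 109618336) 3 of 3, and the block from Mir379 to Mir3072 (109709060 to 109747960) 42 of 42. MiR-127-3p, the most abundant member, lies antisense to the imprinted gene Rtl1. It was at 6173, 9051 and 11698 CPM in eye and at 751, 940 and 3228 CPM in lung (log2 fold change 2.58, SE 0.37, adjusted p = 1.47e-05, and 3.36 without right lung 1 and left lung 2). Its neighbour miR-434-3p was at 1624, 2269 and 2606 CPM against 46.0, 54.7 and 131 CPM (log2 fold change 5.04, SE 0.29), so 2 abundant members of 1 block differed in how far the lung fell below the eye. The smallest difference of the region was that of miR-411-5p, at 2174, 2869 and 3583 CPM against 499, 642 and 1830 CPM (log2 fold change 1.58, SE 0.32, adjusted p = 0.000402, and 2.26 without those libraries).

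**Figure D2:**
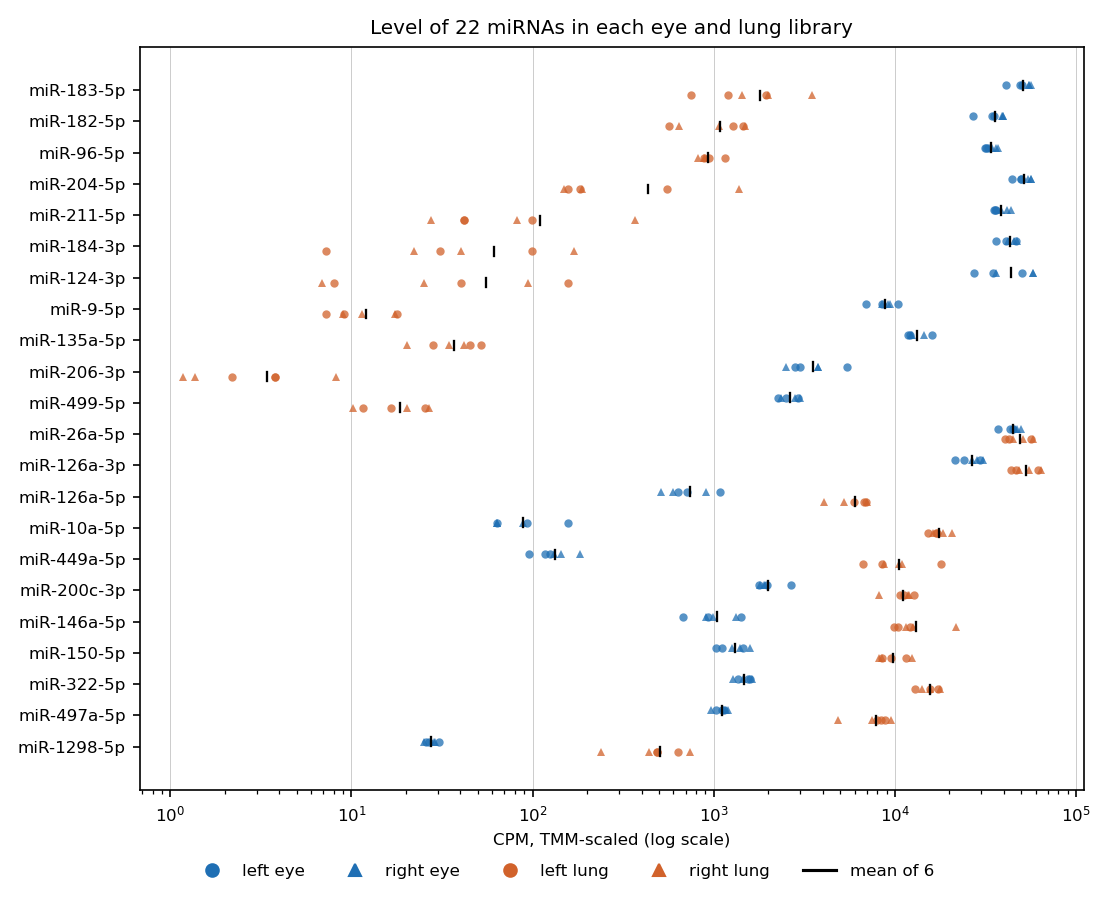
CPM scaled by TMM (log scale) of 22 miRNAs in each of the 12 libraries, circles for the left and triangles for the right organ, with a black bar at the mean of 6. Eye points lie close together at high level for the upper rows while the lung points of miR-204-5p, miR-211-5p, miR-184-3p and miR-124-3p spread widely, and for miR-26a-5p the organs overlap.

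Among miRNAs lower in eye the log2 fold change was largest for miR-10a-5p, followed by miR-1199-5p and miR-449a-5p, which were nearly equal. MiR-1199-5p was at 0, 0.626 and 2.06 CPM in eye and at 39.3, 62.1 and 87.5 CPM in lung. MiR-10a-5p, encoded on chromosome 11 (96317165 to 96317274) in the Hoxb region, was at 63.3, 76.1 and 157 CPM in eye and at 15180, 17015 and 20754 CPM in lung (log2 fold change -7.63, SE 0.28, adjusted p = 7.26e-12). MiR-10b-5p, from the intron of Hoxd3 and Hoxd4 on chromosome 2, was at 125, 180 and 317 CPM in eye and at 140, 289 and 447 CPM in lung. Its log2 fold change of -0.48 (SE 0.28, adjusted p = 0.143) did not pass the test, and the ranges overlapped. The mature forms printed above, alike in all but 1 base, thus differed between the organs by 198-fold for miR-10a-5p and, within the spread, by 1.39-fold for miR-10b-5p.

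The family of miR-34 and miR-449, which is needed for motile cilia, had 6 of 6 tested members lower in eye with no overlap, beside 28.9% and 22.0% of all tested miRNAs. MiR-449a-5p, from an intron of Cdc20b on chromosome 13 (113037534 to 113037624), was at 95.8, 129 and 182.5 CPM in eye and at 6671, 9632 and 17989 CPM in lung (log2 fold change -6.32, SE 0.28, adjusted p = 5.95e-11). MiR-34a-5p, the p53-responsive member, was at 2855, 3403 and 3684 CPM in eye and at 7175, 7860 and 11517 CPM in lung (log2 fold change -1.36, SE 0.15, adjusted p = 6.77e-07). MiR-34b-5p and miR-34c-5p, cut from neighbouring hairpins on chromosome 9, had log2 fold changes of -3.97 (SE 0.55) and -4.01 (SE 0.45). Without left lung 2, left lung 3 and right lung 3 these became -2.56 and -3.22. Members with the seed GGCAGUG and a sequence in the table summed to 3473 CPM in eye and 19452 CPM in lung.

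All 9 tested members of the miR-200 family, which keeps epithelial cells from turning mesenchymal, were lower in eye without overlap, beside 28.9% lower and 22.0% without overlap among all tested miRNAs. MiR-200c-3p was at 1773, 1909 and 2688 CPM in eye and at 8142, 11601 and 12799 CPM in lung (log2 fold change -2.48, SE 0.16, adjusted p = 1.56e-09). MiR-200a-3p, with the other seed of the family, was at 564, 667 and 1227 CPM against 1474, 5819 and 8020 CPM (log2 fold change -2.91, SE 0.35, adjusted p = 1.80e-06). Both loci took part: 4 of 4 members were lower in the Mir141/Mir200c cluster of chromosome 6 (124717914 to 124718390) and 5 of 5 in the Mir200b/a/429 cluster of chromosome 4 (156053905 to 156055750). Left eye 1 held the highest family sum among eyes, 9639 CPM of library totals against 5017 to 6045.

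MiR-126a is the endothelial miRNA encoded within Egfl7 on chromosome 2 (26591357 to 26591429). MiR-126a-3p was at 21435, 27426 and 30869 CPM in eye and at 43954, 51640 and 63946 CPM in lung, so the lung held about 1.99-fold more (log2 fold change -0.99, SE 0.13, adjusted p = 4.72e-06). The other arm, miR-126a-5p, was at 514, 675 and 1084 CPM in eye and at 4060, 6382 and 7047 CPM in lung, about 8.10-fold more (log2 fold change -3.02, SE 0.22, adjusted p = 7.60e-09). Neither arm overlapped between the organs. Of 3 tested arms of miR-221 and miR-222, also found in vessels, 2 were lower in eye, beside 28.9% of all tested miRNAs. MiR-222-3p was at 307, 360 and 418 CPM against 1483, 1980 and 2310 CPM (log2 fold change -2.39, SE 0.16).

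Mural and smooth muscle miRNAs were lower in eye as well. MiR-143-3p was at 15847, 20564 and 23387 CPM in eye and at 34151, 38448 and 47730 CPM in lung (log2 fold change -0.96, SE 0.12, adjusted p = 3.26e-06). MiR-145a-5p was at 197, 328 and 446 CPM against 709, 1301 and 1988 CPM (log2 fold change -2.04, SE 0.33, adjusted p = 3.84e-05, and -1.37 without left lung 2, left lung 3 and right lung 3). All 3 tested arms of the list of miR-143 and miR-145a were lower in eye without overlap, beside 28.9% lower and 22.0% without overlap over all.

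Of 11 tested leukocyte miRNAs 9 were lower in eye without overlap (28.9% lower and 22.0% without overlap over all tested), none was higher, and the 2 arms of miR-342 were not called (both were higher in eye without right lung 1 and left lung 2). MiR-142a-3p, expressed across blood cells and hardly elsewhere, was at 13.1, 26.4 and 34.6 CPM in eye and at 329, 497 and 850 CPM in lung (log2 fold change -4.39, SE 0.33, adjusted p = 1.27e-08, and -3.80 without left lung 2, left lung 3 and right lung 3). MiR-223-3p, of granulocytes and macrophages, was at 44.5, 59.3 and 73.6 CPM against 468, 782 and 900 CPM (log2 fold change -3.64, SE 0.23). MiR-146a-5p, a brake on Toll-like receptor signalling, was at 680, 958 and 1408 CPM in eye and at 9902, 11807 and 21795 CPM in lung (log2 fold change -3.65, SE 0.24, adjusted p = 3.27e-09). MiR-150-5p, of mature lymphocytes, was at 1032, 1334 and 1594 CPM against 8132, 8998 and 12401 CPM (log2 fold change -2.90, SE 0.17). Red cell miRNAs gave another pattern. Of 6 tested names of the erythroid list 4 were higher in eye, beside 40.5% of all, and these 4 are arms of miR-486, known from muscle as well as red cells, with miR-486a-5p and miR-486b-5p as 1 identical count under 2 names. MiR-144-3p (log2 fold change -0.96, adjusted p = 0.133) and miR-451a, the main red cell miRNA, were not called, but both were lower in eye with upper-quartile scaling. MiR-451a was at 1409, 2021 and 4275 CPM in eye and 1659, 2646 and 6465 CPM in lung (log2 fold change -0.48, SE 0.34, adjusted p = 0.22). Without left eye 1, the eye library that held 4275 CPM, its log2 fold change was -0.76 (adjusted p = 0.0453).

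The miR-15/16 family restrains the cell cycle, and its defining seed is AGCAGCA. The list of its hairpins had 12 tested arms, of which 11 were lower in eye, beside 28.9% of all tested miRNAs. The seed AGCAGCA was carried by 6 of these arms, and 5 of the 6 were lower while miR-15a-5p was not called (log2 fold change -0.61). MiR-16-5p, the widely expressed member, was at 13931, 15380 and 20106 CPM in eye and at 13133, 23855 and 25852 CPM in lung, with overlap through right lung 1 alone (log2 fold change -0.49, SE 0.16, adjusted p = 0.013, and 0.0855 without left lung 2, left lung 3 and right lung 3). MiR-322-5p was at 1276, 1496 and 1629 CPM in eye and at 12993, 15570 and 17854 CPM in lung (log2 fold change -3.40, SE 0.13, adjusted p = 1.24e-11). MiR-497a-5p was at 964, 1132 and 1206 CPM against 4831, 8197 and 9557 CPM (log2 fold change -2.83, SE 0.17). Summed over members with a sequence, the seed stood at 21392 CPM in eye and 52841 CPM in lung (log2 fold change -1.30, SE 0.14, adjusted p = 3.28e-07 over 347 seed families).

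MiR-322 belongs to an X-linked cluster from Mir450b to Mir322 (53047997 to 53054349). All 10 tested arms of it with 1 genomic locus, from 6 hairpins, were lower in eye, beside 28.9% of all tested miRNAs. Their median log2 fold change was -3.63, and they summed to 1731 CPM in eye and 18573 CPM in lung. MiR-450a-5p, which has 2 loci in this cluster, is not among them and was lower too (log2 fold change -3.66). The cluster joins several seeds, since miR-351-5p carries the seed CCCUGAG of the miR-125 family. MiR-351-5p was at 30.1, 33.9 and 36.8 CPM against 315, 413 and 596 CPM (log2 fold change -3.69, SE 0.20, adjusted p = 3.21e-10), while miR-125b-5p was not called, at 3086, 4548 and 5417 CPM against 2524, 3435 and 4732 CPM (log2 fold change 0.30, SE 0.20, adjusted p = 0.204, and 0.0332 without left lung 2, left lung 3 and right lung 3). The family sum, which miR-125b-5p and miR-125a-5p make up almost wholly, was 5830 CPM in eye and 5400 CPM in lung (adjusted p = 0.547).

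The miRNAs in introns of Htr2c, the serotonin receptor gene on the X chromosome, were all lower in eye. MiR-1298-5p was at 25.3, 27.8 and 30.3 CPM in eye and at 238, 486 and 742 CPM in lung (log2 fold change -4.19, SE 0.26, adjusted p = 1.64e-09). All 4 tested members (miR-1298-5p, both arms of miR-1264 and miR-764-5p) were lower without overlap, with a median of -3.80. Over all tested miRNAs 28.9% were lower and 22.0% had every lung library above every eye library.

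The miR-23/27/24 family, of endothelium and other vascular cells, had 10 of 10 tested arms lower in eye without overlap, against those shares of 28.9% and 22.0% over all. MiR-24-3p was at 5506, 9216 and 11880 CPM in eye and at 23173, 26287 and 50954 CPM in lung (log2 fold change -1.75, SE 0.23, adjusted p = 4.28e-06). MiR-23a-3p was at 5205, 6389 and 7364 CPM against 20819, 22868 and 25076 CPM (log2 fold change -1.85, SE 0.11, adjusted p = 1.27e-09). MiR-21a-5p, raised in inflammation and fibrosis, was at 5359, 6544 and 7026 CPM in eye and at 10981, 21216 and 24530 CPM in lung (log2 fold change -1.66, SE 0.17, adjusted p = 4.05e-07). In the list of hypoxia and acute response 4 of 6 arms were higher, beside 40.5% of all, and 2 lower, a share near the 28.9% of all. MiR-31-5p went the other way from miR-21a-5p, at 6072, 6734 and 7519 CPM in eye against 683, 1831 and 2042 CPM in lung (log2 fold change 2.04, SE 0.23, adjusted p = 8.74e-07). MiR-210-3p, the classic hypoxia miRNA, was at 101, 161 and 200 CPM in eye and at 2.06, 8.03 and 14.5 CPM in lung (log2 fold change 4.30, SE 0.38, adjusted p = 6.73e-08, and 5.02 without left lung 2, left lung 3 and right lung 3). No eye library overlapped a lung library for either.

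**Figure D3:**
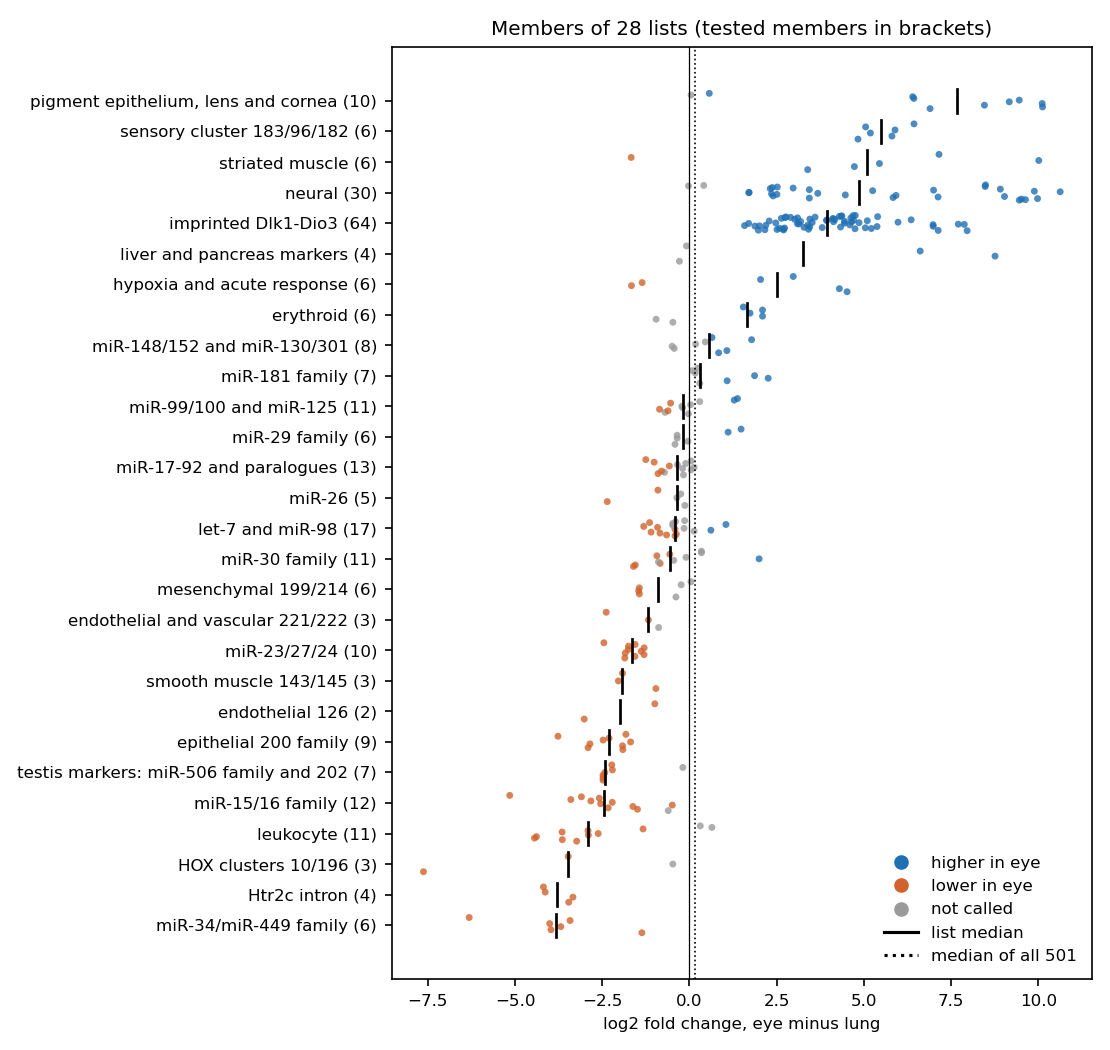
Log2 fold change (eye minus lung) of every tested member of the 28 lists, blue for higher in eye, orange for lower, grey for not called, with a black bar at the list median and a dotted line at the median of all 501 miRNAs. The sensory, pigment, neural, striated muscle and Dlk1-Dio3 lists lie to the right, the miR-34 with miR-449, Htr2c, leukocyte, miR-15/16 and miR-200 lists to the left, and the broadly expressed families near the dotted line.

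Some of the most abundant miRNAs of both organs overlapped between them and were not called. MiR-26a-5p, a broadly expressed brake on growth, was at 37332, 45338 and 49516 CPM in eye and at 40357, 48139 and 57656 CPM in lung (log2 fold change -0.13, SE 0.12, adjusted p = 0.327, and 0.0334 without left lung 2, left lung 3 and right lung 3). MiR-99a-5p was at 27722, 32111 and 34062 CPM against 27447, 32260 and 36195 CPM (log2 fold change -0.03, SE 0.11, adjusted p = 0.827). MiR-181a-5p was at 42335, 49981 and 54729 CPM against 31350, 39691 and 50761 CPM (log2 fold change 0.30, SE 0.13, adjusted p = 0.0552), and reached an adjusted p of 0.0244 without right lung 1 and left lung 2. Its relative miR-181b-5p was higher in eye without overlap, at 8492, 9562 and 10551 CPM against 1143, 2800 and 3886 CPM (log2 fold change 1.87, SE 0.26, adjusted p = 7.86e-06).

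How many arms of the broadly expressed families were called depended on the scale and on single libraries. Of 17 tested let-7 and miR-98 arms, the families best known from developmental timing, 9 were lower and 2 higher in eye, beside 28.9% and 40.5% of all tested miRNAs, but 13 and 0 with upper-quartile scaling and 10 and 1 with relative log expression. The let-7 seed GAGGUAG summed to 137380 CPM in eye and 194220 CPM in lung (log2 fold change -0.50, SE 0.13, adjusted p = 0.00344). Of 13 tested arms of miR-17-92 and its paralogues 5 were lower in eye and 8 not called, but 9 were lower both with upper-quartile scaling and without right lung 1. For miR-26 2 of 5 were lower, but 5 of 5 under either change. For miR-29 2 of 6 arms were higher, near the 40.5% of all, and none lower, but 3 and 4 were lower under these changes. Without right eye 3 the lower arms were 11 for let-7 and miR-98, 8 for miR-17-92 and 5 for miR-26, without right lung 2 they were 13, 8 and 5, and without right eye 1 those of let-7 and miR-98 were 5. Leaving out left eye 1, left eye 2, left eye 3, left lung 2, left lung 3 or right lung 3 left 3 lower arms for miR-17-92.

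Counts of calls moved in other families as well. Of 11 tested arms of the miR-30 family 1 was higher and 5 were lower in eye, and of 11 arms of miR-99, miR-100 and miR-125 2 were higher and 3 lower (8 lower in each with upper-quartile scaling). Over all tested miRNAs 40.5% were higher and 28.9% lower, and 3 of 11 lower is near that share. In the miR-181 family, of lymphoid and neural cells, 3 of 7 arms were higher, a share near the 40.5% of all tested miRNAs, and none lower, but 5 were higher without right lung 1 and left lung 2. For miR-148, miR-152, miR-130 and miR-301 4 of 8 arms were higher, also near that share, and none lower, but 1 higher and 2 lower both with upper-quartile scaling and without right lung 1. For the mesenchymal miR-199 and miR-214 3 of 6 arms were lower, beside 28.9% of all, and 5 under either of these changes, where miR-199a-3p and miR-199b-3p are 1 identical count under 2 names. MiR-199a-3p was at 911, 1008 and 1488 CPM in eye and at 1837, 3160 and 3591 CPM in lung (log2 fold change -1.44, SE 0.19, adjusted p = 4.78e-06).

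Counts were also summed over all miRNAs that share a seed. Of 347 seeds whose sums passed the filter on low counts, 248 (71.5%) differed between eye and lung, and 48 seeds had at least 2 tested members. Only 4 of the 48 had members called in both directions. For the seed GUAAACA, miR-384-5p (higher in eye) and miR-30a-5p, at 1485, 2580 and 3166 CPM in eye and 4216, 7624 and 10899 CPM in lung (log2 fold change -1.60, SE 0.28, adjusted p = 8.31e-05), moved apart. Their family sum was 10296 CPM in eye and 11580 CPM in lung (log2 fold change -0.17, SE 0.24, adjusted p = 0.535). That sum covers the 4 members with a sequence, and miR-30b-5p and miR-30d-5p are not in it. Both of these were lower in eye (log2 fold change -0.84, SE 0.22, and -0.93, SE 0.19), so the near-equal sum does not hold for the whole family. The 11 tested arms of the miR-30 list, without miR-384-5p, summed to 20471 CPM in eye and 39095 CPM in lung. MiR-30b-5p was not called without left lung 2, left lung 3 and right lung 3 (adjusted p = 0.0938).

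The seed AGGAGCU also had members called in opposite directions. MiR-708-5p, from an intron of Tenm4, was at 717, 886 and 983 CPM in eye and at 8.65, 31.6 and 57.5 CPM in lung (log2 fold change 4.78, SE 0.36, adjusted p = 1.01e-08). MiR-28a-5p, from an intron of Lpp, was at 413, 485 and 572 CPM in eye and at 615, 1272 and 1332 CPM in lung (log2 fold change -1.26, SE 0.20, adjusted p = 3.20e-05). Each separated the organs completely, yet their sum was 1366 CPM in eye and 1208 CPM in lung (log2 fold change 0.18, SE 0.18, adjusted p = 0.387). The seed UCCCUUU of miR-204-5p and miR-211-5p, by contrast, stood at 90326 CPM in eye and 544 CPM in lung (log2 fold change 7.38, SE 0.64).

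Neighbouring hairpins were rarely called in opposite directions. Among tested miRNAs with 1 genomic locus, hairpins on 1 strand with at most 10 kb between neighbours formed 30 clusters. In 6 clusters every tested arm was higher in eye, in 9 every arm was lower, in 4 none was called, and only the Mir99b/let-7e/125a cluster of chromosome 17 held calls in both directions. Among all tested miRNAs 40.5% were higher and 28.9% lower, and a cluster could hold as few as 2 tested arms. The clusters wholly higher in eye include the 3 blocks of Dlk1-Dio3, Mir183 with Mir96 and Mir182, Mir206/Mir133b on chromosome 1 (20679010 to 20682887) and Mir212/Mir132 on chromosome 11 (75173388 to 75173747), the last an activity-dependent pair of neurons with a median of 2.45. The clusters wholly lower include the Mir497/Mir195a pair of chromosome 11 (70234717 to 70235135, 1466 CPM in eye and 9941 CPM in lung) and the Mir34b/Mir34c pair of chromosome 9 (51103034 to 51103645).

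By chromosome, 65 of 74 tested single-locus miRNAs of chromosome 12 were higher in eye and 3 lower, with a median log2 fold change of 3.43. Over all tested miRNAs 40.5% were higher and 28.9% lower. On the X chromosome 4 of 46 were higher and 27 lower, with a median of -1.67. The X-linked miRNAs lower in eye include members of the Mir450b to Mir322 cluster, the Htr2c introns, Mir221/Mir222 and the testis-expressed miR-465 and miR-471 hairpins. Chromosome 13 had 2 of 13 higher and 9 lower, and chromosome 7 had 15 of 25 higher and 4 lower. Members of a cluster share a transcript, so these miRNAs are not independent of each other.

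**Figure D4:**
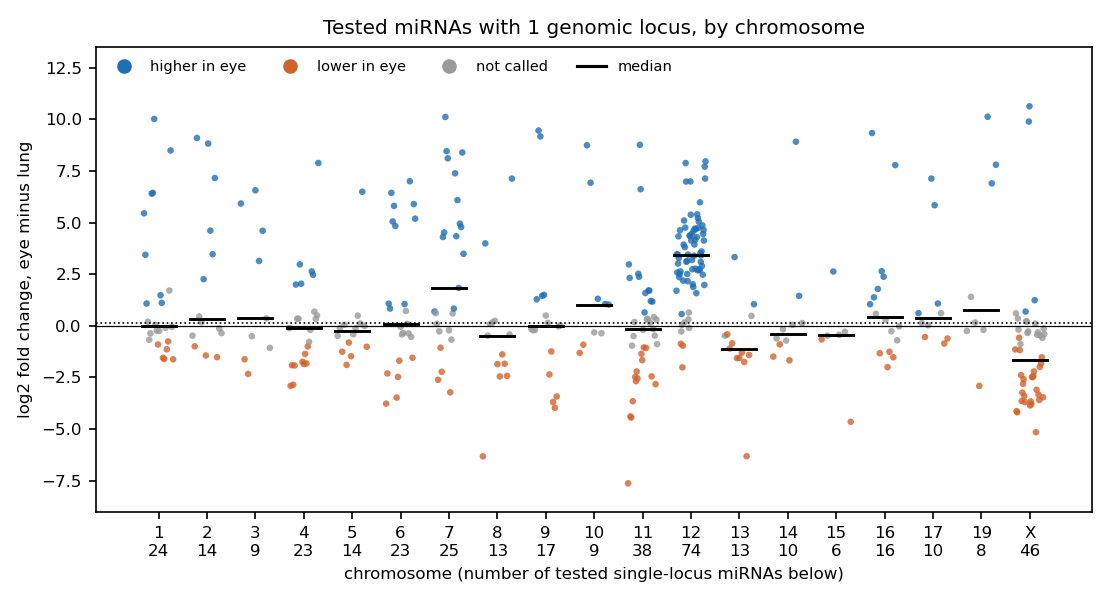
Log2 fold change (eye minus lung) of each tested miRNA with a single genomic locus, grouped by chromosome, with black bars at the chromosome medians and a dotted line at the median of all 501. Chromosome 12 stands high because of the Dlk1-Dio3 hairpins (65 of 74 higher in eye, beside 40.5% of all tested miRNAs). The X chromosome stands low (27 of 46 lower, beside 28.9%), while the 2 highest X points are the arms of miR-384.

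MiRNAs of the testis list were low in both organs but called lower in eye for 6 of 7 tested names, beside 28.9% of all. MiR-465a-3p, miR-465b-3p and miR-465c-3p hold 1 identical count under 3 names, so the 6 names rest on 4 separate counts. Of 39 names of the list among the counts only 7 passed the filter, which the lung level alone can satisfy. The number called depended strongly on the processing. Over all alternatives with a filter 1 to 11 names were lower in eye and 0 higher, and the number of names tested was not the same in all of them. MiR-202-5p was at 3.42, 8.93 and 25.4 CPM in eye and at 9.47, 38.3 and 103 CPM in lung (log2 fold change -2.23, SE 0.56, adjusted p = 0.00222). Without left lung 1 and right lung 3 it was -1.38, and without right eye 3, the eye library with the highest level, -2.99. Among 4 tested pancreas and liver markers 2 were higher in eye (miR-216a-5p and miR-216b-5p, on 700 and 157 counts against 1 each in lung), a share near the 40.5% of all tested miRNAs. MiR-375-3p, of endocrine cells, was at 3072, 3502 and 4615 CPM in eye and at 3168, 3311 and 5359 CPM in lung (log2 fold change -0.09, SE 0.17, adjusted p = 0.669). MiR-122-5p, the hepatocyte miRNA, stayed at 5.48 to 9.16 CPM in eye and 5.67 to 11.4 CPM in lung (log2 fold change -0.29, SE 0.23, adjusted p = 0.279, and -0.65 with 0.0332 without left lung 2, left lung 3 and right lung 3).

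The balance between the 2 arms of a hairpin was compared for 141 precursors with both arms among the listed names. The sum of their arms had a mean of at least 10 counts in each organ, and each arm reached that mean in at least 1 organ. An exact permutation test over the 12 libraries (two-sided, Benjamini-Hochberg adjusted over the 141) called 21 (14.9%), 9 with a higher ratio of 5p to 3p counts in eye and 12 with a lower one. Eye and lung libraries did not overlap for 16 (11.3%), which share the smallest p the design allows (0.00216, adjusted 0.0191). The number called depended on single libraries: it was 10 without left eye 1, 13 without left eye 2 or right eye 2, and 37 without right lung 1.

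MiR-126a had the most counts among the called hairpins. Its 5p arm made up 2.78% ± 1.01 (SD, n = 6) of the hairpin's counts in eye and 10.4% ± 2.83 in lung, with no overlap (exact permutation test, adjusted p = 0.0191). MiR-31 shifted slightly but tightly, from 92.1% ± 0.389 of 5p in eye to 95.7% ± 0.824 in lung. In the Dlk1-Dio3 region, miR-434 held 9.64% ± 2.20 of 5p in eye and 33.2% ± 4.14 in lung. MiR-154, of the same region, held 81.0% ± 2.53 and 94.6% ± 1.85. In both the 5p share was higher in lung without overlap and the 3p arm had the larger log2 fold change, 5.04 against 2.73 for the 5p arm of miR-434 and 4.63 against 2.63 for that of miR-154.

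The dominant arm itself changed in 3 called hairpins. MiR-199a held 56.1% ± 6.07 of 5p in eye and 36.8% ± 13.9 in lung, with mean counts of 3429 and 2664 for 5p and 3p in eye and 5142 and 8158 in lung, although its 3p sequence is identical to miR-199b-3p. MiR-503, of the X-linked cluster, held 63.3% ± 7.65 and 36.6% ± 17.0. It rests on low eye levels, means of 6.43 CPM for the 5p and 3.52 CPM for the 3p arm. In lung its 3p arm stood apart in right lung 1, at 355 CPM against 74.0 to 98.9 in the other lungs. MiR-376b held 36.1% ± 5.56 of 5p in eye and 56.4% ± 5.42 in lung. It rests on few lung counts, means of 6 for the 5p and 4.5 for the 3p arm. For miR-10a and miR-204, which were called too, the minor arm was near 0 in 1 organ (means of 0.167 counts in eye and 1 count in lung), so the 0.5 counts added before taking the ratio set their size.

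**Figure D5:**
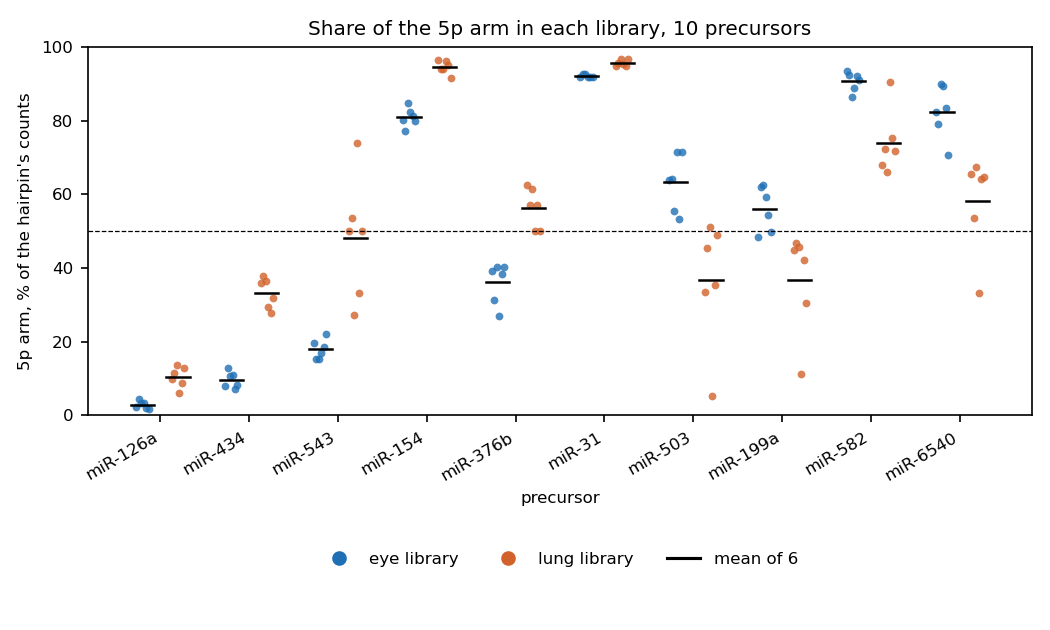
Share of the 5p arm in a hairpin's counts (percent) for 10 called precursors, with 1 point per library (blue eye, orange lung) and a black bar at the mean of 6. Eye and lung points are apart for miR-126a, miR-434, miR-154 and miR-31, and miR-503, miR-199a and miR-376b cross the dashed line at 50%.

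The contrast between eye and lung was also compared between the sides. No miRNA had a difference between left and right at an adjusted p under 0.05 in edgeR's quasi-likelihood test (0 of 501, lowest adjusted p = 1), and 12 had an unadjusted p under 0.05. The miRNA with the lowest p was miR-486a-5p, whose contrast was larger on the left by 1.27 on the log2 scale (SE 0.40, unadjusted p = 0.0071).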

How the data were processed

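Small RNA libraries of 6 eye and 6 lung samples were analysed as deposited by the authors: unnormalised read counts per mature miRNA name, 1 table per library. Per the labels' protocols RNA was isolated with a spin-column kit, and per the submitters' processing notes the genome build was GRCm38.p6. For aligner, counter, strand and multi-mapped reads the choice is not given in the sources used here, so names with identical counts (10 sets, 22 names) and overlapping hairpins may share reads. The lists, the named miRNAs and the comparison itself were chosen with earlier results of these data known. Depth was 2451484 to 2790471 counts per library. There were 0 unused value columns.

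Counts were filtered with filterByExpr by organ (501 of 1431 names kept, at least 99.92% of counts; 100 names were at 0 in all 12 libraries), scaled by TMM and fitted with edgeR 4.0.16 in R 4.3.3 (quasi-likelihood F test, organ as the term, Benjamini-Hochberg threshold 0.05). SE is the absolute log2 fold change divided by the square root of F. Alternatives used DESeq2 1.42.0 and limma 3.58.1, other scalings, filters and left-out libraries. Data were simulated for the eye against lung comparison with 501 miRNAs, part of them changed by 1.5- to 8-fold in random directions. There 30% of 1.5-fold, 77.1% of 2-fold and 100% of 4-fold changes were recovered, and 3.82% of calls were false. The real data held far larger changes and more calls to 1 side, so this false share does not cover error from the scaling.

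Named miRNAs were those called with a mean of at least 50 CPM in the higher organ and no overlap (the 15 largest changes each way), the 8 most abundant of each organ and up to 4 of the most abundant members of each of the 28 lists, which gave 133. The 133 include members of the seeds GUAAACA and AGGAGCU, taken because members of at least 50 CPM were called in both directions. The other seeds and the arm balances printed were not chosen by this rule. MiR-9b-3p, miR-10b-5p and other names outside the rule for named miRNAs were picked after their values were seen. Sequences and loci came from RefSeq (1209 of 1431 names and 424 of 501 tested matched, 85.0% to 88.8% of counts). Seed sums cover matched names only. Arm balance was log2 of 5p over 3p counts with 0.5 added, for precursors with a mean of at least 10 counts. Ratios with 3 counts as the floor and 95% exact intervals cover counting error only. Python 3.11.15 with SciPy 1.17.1 was used for the permutation tests.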

Additional observations from a re-analysis of the deposited data

Results flagged for a closer look

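In 266 groups of 6 libraries, 1 organ for 1 named miRNA each, the library at 1 end was tested for a gap to its neighbour that, as a share of the group's range, passes Dixon's 95% limit for 6 values. This marked 32 groups, and chance alone marks about 1 in 20. Right lung 1 was the library apart in 12, left eye 1 and left lung 2 in 6 each.

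Right lung 1 was above the other lungs for miR-204-5p (1380 CPM against 148 to 550), miR-211-5p (366 against 27.5 to 98.8), miR-206-3p (8.24 against 1.18 to 3.80), miR-503-3p (355 against 74.0 to 98.9), miR-146a-5p (21800 against 9900 to 12600) and miR-181d-5p (1090 against 335 to 533). It was below them for miR-16-5p (13100 against 23600 to 25900), miR-15a-5p (745 against 3330 to 4160), miR-21a-5p (11000 against 20900 to 24500), miR-28a-5p (615 against 1260 to 1330), miR-29c-3p (346 against 1190 to 1670) and miR-1264-5p (24.3 against 58.2 to 75.7). Without it miR-15a-5p was called lower in eye (log2 fold change -1.08, adjusted p = 5.11e-06, against -0.61 and 0.0829 with all 12 libraries).

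Left lung 2 was above the other lungs for miR-205-5p (37.9 CPM against 1.24 to 7.92), miR-434-3p (131 against 46.0 to 71.4), miR-204-3p (1.38 against 0 to 0.392), miR-124-5p (0.688 against 0), miR-129-2-3p (0.344 against 0) and miR-216a-5p (0.344 against 0). The last 3 rest on 1 or 2 counts, as does miR-216b-5p in right lung 2 (0.392 against 0). Right lung 3 held 6470 CPM of miR-451a against 1660 to 3150 in the other lungs.

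Left eye 1 was above the other eyes for the red cell miRNAs miR-451a (4280 CPM against 1410 to 2320) and miR-486a-3p (75.6 against 36.6 to 48.9), for the epithelial miR-200c-3p (2690 against 1770 to 1960) and miR-200a-3p (1230 against 564 to 801) and for miR-10a-5p (157 against 63.3 to 92.8), and below them for miR-30b-5p (4170 against 6060 to 7090). Left eye 2 was above for miR-503-3p (5.76 against 2.72 to 3.42), right eye 2 for miR-148a-3p (1570 against 352 to 636), right eye 3 for miR-202-5p (25.4 against 3.42 to 10.03) and right eye 1 for miR-342-3p (1760 against 1280 to 1460). Right eye 1 was below for miR-92a-3p (1320 against 1770 to 2040) and right eye 3 for miR-34b-3p (109 against 180.9 to 212).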

How the results depend on the processing

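No miRNA called both in the main analysis and in an alternative changed direction between them. Of 133 named miRNAs 106 were called, and 13 of these lost the call in at least 1 of 42 alternatives, among them let-7a-5p, let-7c-5p, let-7f-5p, miR-16-5p, miR-19b-3p, miR-148a-3p and miR-301a-3p. The count of 348 calls became 361 with relative log expression, 407 with upper-quartile scaling (184 higher and 223 lower in eye), 371 with DESeq2, 346 with limma-voom and 340 to 409 with 1 library left out, highest without right lung 1 (207 higher). TMM computed against each library in turn gave 344 to 385, and left lung 2 as the reference gave 194 higher and 191 lower. Without a filter the calls of at least 2-fold were 475 against 309, of them 292 against 195 higher in eye. A minimum of 10 CPM in 6 libraries gave 311 calls, 151 higher and 160 lower. Alternatives chosen after seeing the data left out lungs: 359 without left lung 1 and right lung 3, 393 without right lung 1 and left lung 2, and 351 without left lung 2, left lung 3 and right lung 3. Called arm balances numbered 44 with 5 counts added, 7 of 62 with a mean of at least 100 counts and 10 to 37 with 1 library left out. The arm balance of miR-300 was 0.90 and became -1.03 with 5 counts added, and its mean 5p count in lung was 1.17. Shares and ratios of miRNAs at or near 3 counts are limited by depth.

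Correlations of same-numbered deviations from the group mean were -0.23 to 0.21 between eye and lung of a side and -0.45 to 0.51 between the sides of an organ. Between the sides they were -0.23, -0.45 and -0.27 in eye and 0.18, -0.04 and 0.51 in lung. With 3 libraries per group such correlations cannot show whether replicate numbers pair the libraries by mouse. A replicate block gave 344 calls (208 higher, 136 lower), a block by side 337, and 248 seed families. The difference between the sides had 0 calls with the block as well (13 at an unadjusted p under 0.05, lowest adjusted p = 0.957).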

Other observations

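MiR-297c-5p, outside the tested set, was present in some libraries of either organ and close to 0 in the others. It had 374 counts in left eye 2, 318 in left eye 3, 215 in right eye 3 and 174 in right lung 2, and 0 to 2 counts in the remaining 8 libraries.

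MiR-744-5p was high in 2 eye and 3 lung libraries and low in the others. It had 871, 15 and 1239 counts in left eye 1 to 3, 7, 11 and 20 in right eye 1 to 3, 1012, 20 and 1821 in left lung 1 to 3 and 12, 1207 and 38 in right lung 1 to 3. MiR-744-3p ranged from 52 to 114 counts over the same libraries.

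MiR-532-5p was at 16 counts in left eye 2 and 23 in right eye 3 and at 5257 to 7155 in the other eyes. Its 3p arm, miR-532-3p, had 0, 107 and 0 counts in left eye 1 to 3 and 454, 0 and 82 in right eye 1 to 3, and in lung it was uneven too, with 430, 258 and 3 counts in left lung 1 to 3 and 0, 216 and 2 in right lung 1 to 3. The balance of the arms was not called (exact permutation test over 6 eye and 6 lung libraries, adjusted p = 0.918).

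MiR-1199-5p, from an exon of 2210011C24Rik on chromosome 8 (84011515 to 84011633), had 114 to 223 counts in each lung library and 0 to 5 in each eye library (log2 fold change -6.32, SE 0.52, adjusted p = 2.76e-08).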
